A study of Mus musculus with 4 samples.

Results

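The genes described here are 37 interferon-stimulated genes, measured on 4 Affymetrix Mouse Genome arrays of cultured mammary fibroblasts. A gene was included when a probe set carried its symbol alone in the platform annotation, and its brightest such probe set, by the mean of all arrays, gave its value. In this way 35 of the 37 genes were measured, among 18194 genes in all. The only probe set that names *Isg15*, the ubiquitin-like modifier, also names a second gene, and no probe set used here carries the symbol of *Ifi44*. Neither has a value below. A total of 57 probe sets covered the measured genes, and 15 genes had more than 1.

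Cells came from 16-week-old female FVB/N mice, and RNA was taken from cultures at passage 2 after collagenase and hyaluronidase digestion and gravity separation. Normal fibroblasts with *Ets2* were from Ets2db/loxP mice and normal *Ets2* null fibroblasts from FspCre;Ets2db/loxP mice. Fibroblasts from glands with the oncogene were from ErbB2;Ets2db/loxP mice and, lacking *Ets2*, from ErbB2;Fsp-cre;Ets2db/loxP mice. All 4 genotypes carry a conventional knockout allele of the *Ets2* DNA-binding domain (db) beside the floxed allele, so the animals called *Ets2* present had a single working copy. Cre was driven by the fibroblast specific protein 1 promoter and was present only in the null genotypes, so loss of *Ets2* and presence of Cre cannot be told apart. The oncogene was expressed in epithelium from the MMTV promoter, and glands were taken before tumors could be felt. Whether a culture pooled several animals is not stated in the labels or methods.

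Interferons are secreted proteins by which cells warn each other of infection. Type I interferons signal through the IFNAR receptor and the kinases JAK1 and TYK2 to a complex that holds STAT2 and IRF9 and binds the interferon-stimulated response element (ISRE), while type II interferon acts at the gamma-activated site (GAS). The genes induced encode sensors of viral nucleic acid, proteins that block viral replication, GTPases that act on intracellular microbes and the machinery that loads peptides on MHC class I. Fibroblasts are a classical source of interferon beta and keep many of these genes at a low resting level.

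With 1 array per genotype there was no replicate check and no test was possible, so no error or p-value is given. Values are on the log2 scale and in the order normal with *Ets2*, normal *Ets2* null, *ErbB2* with *Ets2* and *ErbB2* *Ets2* null. A difference over 1 on the log2 scale (2-fold) was the rule of size, a value under log2 6 was not taken as shown above background, and levels of different probe sets were not compared. The arrays had medians between 5.51 and 5.54, and between 42.5% and 42.8% of their probe sets lay at log2 6 or more. *Ets2* itself read 8.14, 8.35, 8.34 and 8.31, which does not check the genotypes, since where the probe set lies in the transcript is unknown here. *Vim*, the fibroblast filament gene, read 14.05, 14.06, 13.97 and 14.05, but 7 of the 11 fibroblast markers were lowest in normal *Ets2* null cells, with a median difference of -0.47 there. Among them the collagen gene *Col3a1* read 13.62, 12.48, 13.93 and 13.72, and *Lum*, a matrix proteoglycan, read 7.77, 6.71, 9.47 and 8.45. The epithelial keratin *Krt8* read 6.65, 9.73, 9.25 and 6.15. The 6 luminal epithelial markers averaged 6.14, 7.86, 7.71 and 5.74, and the 4 basal ones 5.01, 6.56, 6.13 and 4.75. In normal cells 5 of the 6 luminal and 3 of the 4 basal markers were higher in the *Ets2* null culture. In *ErbB2* cells all 6 luminal and 3 of the 4 basal markers were lower in it. *Epcam*, the luminal exception in normal cells, read 8.29, 7.98, 8.32 and 8.10 on its brightest probe set, which enters the averages. On another probe set the study lists *Epcam* as higher in normal *Ets2* null cells. The cultures thus also differed in most of the epithelial transcripts listed. The 25 macrophage and myeloid markers averaged 7.95, 7.69, 8.84 and 7.53, and all 25 were higher in *ErbB2* than in normal fibroblasts with *Ets2*. In such bulk samples fewer cells of a type and less RNA per cell cannot be told apart.

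Over the 4 arrays the range of the interferon-stimulated genes had a median of 0.47 on the log2 scale, against 0.33 over all genes, and 5 of 35 (*Usp18*, *Ifit1*, *Bst2*, *Gbp2* and *Irgm1*) had a range over 2-fold (14.3%), against 3.97% of all genes. No measured gene differed by 4-fold in any of the 4 comparisons. The largest difference belonged to *Gbp2*, an interferon-inducible GTPase, which was 2.76-fold lower in *ErbB2* *Ets2* null than in *ErbB2* fibroblasts with *Ets2*. Most of the other genes were instead lowest in *ErbB2* fibroblasts with *Ets2*. Of the 35 genes 12 lay below log2 6 on every array, among them *Ifit1*, *Ifit3*, *Oasl1*, *Oasl2*, *Usp18* and *Cmpk2*, and 20 lay at or above it on every array. The remaining 3, *Ifih1*, *Rsad2* and *Rtp4*, lay on both sides.

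**Figure D1:**
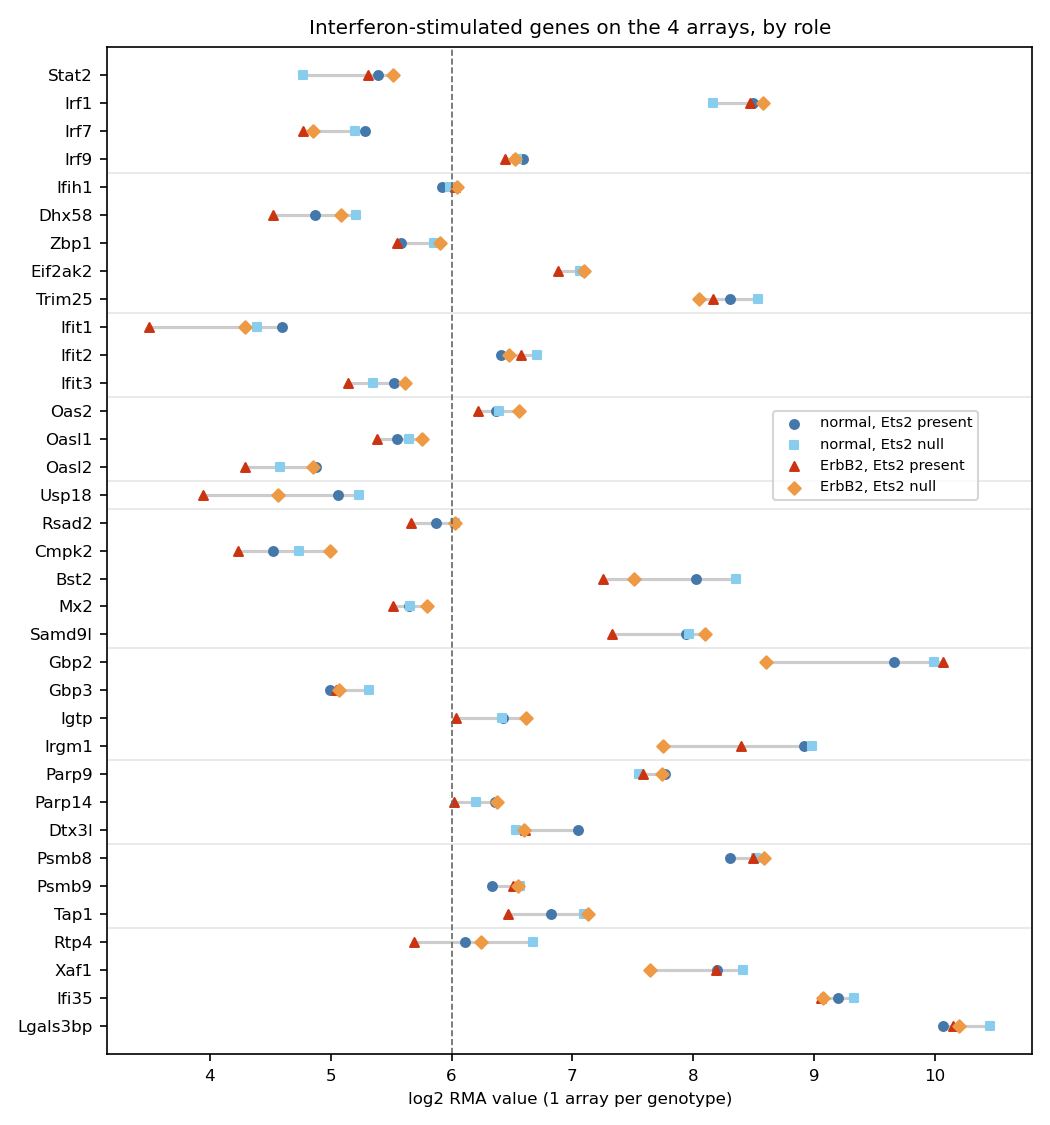
Log2 RMA values (x axis) of the 35 measured interferon-stimulated genes (y axis, in order of role, with lines between roles), 1 symbol for each of the 4 arrays; grey bars join the lowest and highest array and the dashed line marks log2 6. For 21 genes the red triangle, ErbB2 with Ets2, is the leftmost symbol, whereas for Gbp2 it is the rightmost; positions of different genes are not comparable, since probe sets differ in brightness.

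The promoters of these genes were searched for the letters that the pathway's factors bind. Windows of the 250 bases before the start were available from RefSeq (GRCm38.p6) for 29 of the 37 genes, and *Dhx58*, *Mx2*, *Oas2*, *Parp14*, *Parp9*, *Rtp4*, *Usp18* and *Zbp1* were without one. The ISRE letters, GAAA and GAAA with any 2 bases between them, read on both strands, were found in 10 of the 29 genes (34.5%), against 3.46% of 27025 gene symbols with a window of this length. The GAS letters TTCNNNGAA, which read the same on both strands, were found in 6 genes (20.7%), against 8.13% of symbols. The letters GGAAGT, a form of the ETS core searched on both strands, were found in 7 genes (24.1%), against 22.2% of symbols. The 10 genes with ISRE letters were *Gbp2*, *Gbp3*, *Irgm1*, *Igtp*, *Bst2*, *Rsad2*, *Ifit1*, *Ifit3*, *Stat2* and *Isg15*. *Psmb9* and *Tap1* start back to back, and 225 of the 250 bases of their windows are the same stretch. A match describes these letters only, and is neither a shown site nor a cause of any level below.

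In normal fibroblasts, *Ets2* null and *Ets2* present cultures were compared without the oncogene. No interferon-stimulated gene was more than 2-fold higher or lower, against 0.621% of all genes higher and 0.357% lower. Differences ran from -0.63 for *Stat2* to 0.57 for *Rtp4*, and 32 of 35 (91.4%) lay within 0.5 of 0, against 93.6% of all genes. The median difference was 0.10, with 23 genes above 0, beside a median of -0.00 over all genes, of which 49.4% were above 0.

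In fibroblasts from *ErbB2* glands, 29 of 35 genes were higher in the *Ets2* null culture, against 55.8% of all genes, and the median difference was 0.22, beside 0.04 over all genes. Of the 15 genes with several probe sets, 8 had the same sign on all of them here. No gene was more than 2-fold higher (0.341% of all genes were) and 1, *Gbp2*, was more than 2-fold lower (1.74% of all genes were). The highest differences were 0.79 for *Ifit1*, 0.77 for *Samd9l*, 0.76 for *Cmpk2*, 0.66 for *Tap1* and 0.62 for *Usp18*. Within 0.5 of 0 lay 23 of 35 (65.7%), against 87.5% of all genes. The 14 genes with a mean below log2 6 were all higher, against 66.4% of the 7831 genes that dim, with a median of 0.37 beside 0.10. Of the 21 brighter genes 15 were higher (71.4%), against 47.8% of all genes of that level, with a median of 0.09 beside -0.01. With a value of log2 6 or more on the higher array, the median over the remaining 23 genes was 0.095.

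The oncogene comparison with *Ets2* present, which asked how the cells of *ErbB2* glands differed from normal ones, used the same *ErbB2* array as the *Ets2* comparison just described, so a value of that array enters both, with opposite sign, and the comparisons are not independent. In it 28 of 35 genes were lower in *ErbB2* than in normal fibroblasts, against 53.5% of all genes, and the median difference was -0.19, beside -0.02 over all genes. *Usp18* (-1.12) and *Ifit1* (-1.10) were more than 2-fold lower, against 0.17% of all genes, and both lay below log2 6 on every array. No gene was more than 2-fold higher, against 0.83% of all genes. Within 0.5 of 0 lay 28 of 35 (80.0%), against 93.7% of all genes. The dim genes had a median of -0.25 and the brighter genes of -0.16, beside -0.04 and 0.00 over all genes of those levels.

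Between *ErbB2* and normal fibroblasts without *Ets2* the direction was mixed. Of the 35 genes 19 were higher, against 54.8% of all genes, and the median was 0.03 over the list and 0.03 over all genes. The mean over the list was -0.12, of opposite sign, with *Gbp2* (-1.39) and *Irgm1* (-1.23) more than 2-fold lower, against 1.51% of all genes. No gene was more than 2-fold higher, against 0.544% of all genes, and 29 of 35 (82.9%) lay within 0.5 of 0, against 91.6% of all genes.

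At 4-fold the shares of all genes were 0.0824% higher and 0.022% lower for loss of *Ets2* in normal cells, 0.033% and 0.324% in *ErbB2* cells, and 0.11% higher and 0.011% lower for the oncogene with *Ets2*, and 0.0715% and 0.22% without it, beside no listed gene in each. The smaller size of 1.5-fold was counted as well. Between the *Ets2* null and *Ets2* present arrays of normal cells, 0 genes were higher (2.31% of all genes) and 1 lower, *Stat2* (1.87%). In *ErbB2* cells 5 were higher, *Ifit1*, *Samd9l*, *Cmpk2*, *Tap1* and *Usp18* (2.84%), and 2 lower, *Gbp2* and *Irgm1* (5.64%). Between the *ErbB2* and normal arrays with *Ets2*, 0 were higher (2.91%) and 4 lower, *Usp18*, *Ifit1*, *Bst2* and *Samd9l* (1.31%). Without *Ets2* 1 was higher, *Stat2* (2.09%), and 5 lower, *Gbp2*, *Irgm1*, *Bst2*, *Xaf1* and *Usp18* (3.87%). Of these, *Bst2* passed 1.5-fold by oncogene both with and without *Ets2*, and so did *Usp18*. *Usp18*, *Ifit1*, *Cmpk2* and *Stat2* lay below log2 6 on every array, so their folds are between values not shown above background.

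**Figure D2:**
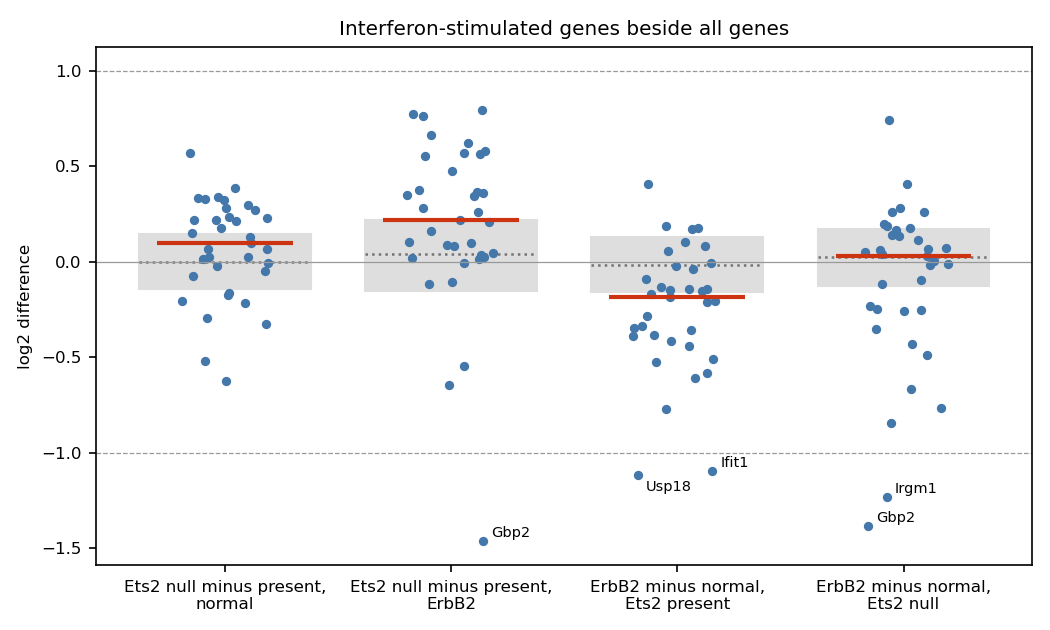
Log2 differences (y axis) of the 35 interferon-stimulated genes in the 4 comparisons (x axis), 1 point per gene; red lines are their medians, grey boxes the quartile range of all 18194 genes, dotted lines the medians of all genes and dashed lines the 2-fold size. The points sit mostly above 0 for Ets2 null minus present in ErbB2 fibroblasts (median 0.22) and mostly below 0 for ErbB2 minus normal with Ets2 present (median -0.19), and the 5 labelled points are past 2-fold.

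Read by array, 21 of 35 genes (60.0%) had their lowest value in *ErbB2* fibroblasts with *Ets2*, against 30.9% of all genes and 38.1% of all genes with a mean below log2 6. The lowest value fell on normal cells with *Ets2* for 6 genes (20.5% of all genes), on normal *Ets2* null cells for 4 (24.9%) and on *ErbB2* *Ets2* null cells for 4 (23.7%). The same *ErbB2* array held the highest value of 1 gene only, *Gbp2*, against 23.9% of all genes. The *ErbB2* *Ets2* null array held the highest value of 16 genes (45.7%), against 31.7% of all genes, and the normal arrays that of 6 with *Ets2* (21.8%) and 12 without (22.6%). Among the 21 genes with a mean at log2 6 or more, 10 were lowest in *ErbB2* fibroblasts with *Ets2*, against 25.5% of all genes that bright. A separate list of 58 other interferon-stimulated genes, of which 51 were measured, had 22 genes (43.1%) lowest on that array, and 36 of the 51 were lower in *ErbB2* than in normal fibroblasts with *Ets2*. That list differed elsewhere, with a median of -0.14 for loss of *Ets2* in normal fibroblasts and its highest value in normal fibroblasts with *Ets2* for 22 genes. The array in question was also the one with the most myeloid signal. The 11 measured T, NK and B lymphocyte markers, dim genes for the most part, had 7 genes (63.6%) lowest there as well. The part of either cell type in the order of the interferon-stimulated genes was not tested.

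**Figure D3:**
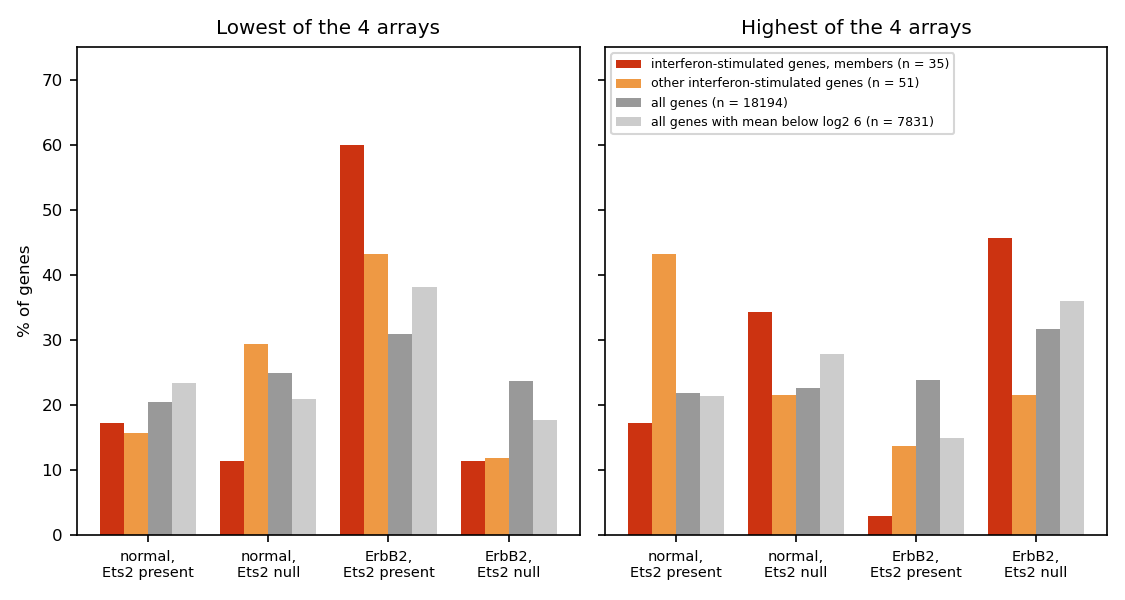
Percentage of genes (y axis) whose lowest value (left) or highest value (right) of the 4 falls on each array (x axis), for the 35 measured interferon-stimulated genes, 51 other interferon-stimulated genes, all genes and all genes with a mean below log2 6. ErbB2 fibroblasts with Ets2 hold the lowest value of 60.0% of the listed genes against 30.9% of all genes, and the highest value of 1 listed gene.

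The transcription factors of the pathway differed by less than 2-fold in every comparison. *Stat2*, which carries the signal from the type I receptor, read 5.39, 4.77, 5.31 and 5.51, lowest in normal *Ets2* null cells and below log2 6 throughout. Its other probe set gave the same order at the low end (5.33, 4.97, 5.17 and 5.34). *Irf9*, the DNA-binding partner of STAT2, read 6.59, 6.54, 6.44 and 6.53, a spread of under 0.2 over all 4 arrays. *Irf1*, an early responder to interferon gamma, read 8.49, 8.17, 8.47 and 8.57. Like *Stat2* it was lowest in normal *Ets2* null cells, by 0.33 against normal cells with *Ets2*. *Irf7*, which amplifies type I interferon production, read 5.28, 5.20, 4.77 and 4.85, with both *ErbB2* arrays under both normal arrays.

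The nucleic acid sensors differed by less than 0.6 between any pair of arrays compared. *Ifih1* (MDA5), a sensor of long double-stranded RNA, read 5.92, 5.99, 6.03 and 6.05. *Dhx58* (LGP2), its regulator, read 4.87, 5.21, 4.52 and 5.09, higher in both *Ets2* null arrays by 0.34 and 0.57, and below log2 6 throughout. *Zbp1*, a sensor of left-handed nucleic acid, read 5.58, 5.86, 5.55 and 5.90, likewise higher in both null arrays. For both genes each null array lay above both arrays with *Ets2*, while a dimmer *Dhx58* probe set read 4.62, 4.27, 4.34 and 4.35. *Eif2ak2* (PKR), the kinase that halts translation on double-stranded RNA, read 7.09, 7.06, 6.88 and 7.10. *Trim25*, the ubiquitin ligase of the RIG-I pathway, read 8.31, 8.54, 8.17 and 8.05, lowest in *ErbB2* *Ets2* null cells. A dimmer probe set kept the same array lowest (7.92, 8.07, 7.74 and 7.64). The dimmest, above log2 6 throughout, read 6.21, 6.61, 6.37 and 6.40, lowest in normal cells with *Ets2*.

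The IFIT proteins bind viral RNA and block its translation. Promoters of *Ifit1* and *Ifit3* are shown because both genes were lowest in *ErbB2* fibroblasts with *Ets2* and hold the same pair of ISRE matches, in capitals, at different spacing. The windows are chr19:34640639-34640888 for *Ifit1* and chr19:34583279-34583528 for *Ifit3* (GRCm38.p6, plus strand, 5′ to 3′, the last base next to the start).
Ifit1: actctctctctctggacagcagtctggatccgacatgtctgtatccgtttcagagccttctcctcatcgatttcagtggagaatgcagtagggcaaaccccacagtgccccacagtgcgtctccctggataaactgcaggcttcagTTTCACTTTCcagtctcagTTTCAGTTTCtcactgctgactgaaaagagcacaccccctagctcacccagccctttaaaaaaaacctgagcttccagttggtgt
Ifit3: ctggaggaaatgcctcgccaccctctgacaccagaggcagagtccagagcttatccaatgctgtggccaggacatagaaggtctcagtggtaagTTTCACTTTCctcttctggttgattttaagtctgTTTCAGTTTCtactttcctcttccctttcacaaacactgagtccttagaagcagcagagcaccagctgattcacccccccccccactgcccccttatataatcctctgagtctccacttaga
In *Ifit1* the matches TTTCACTTTC and TTTCAGTTTC end 95 and 76 bases before the start, and in *Ifit3* they end 147 and 113 bases before it. *Ifit1* read 4.60, 4.39, 3.50 and 4.29, and was 2.14-fold lower in *ErbB2* than in normal fibroblasts with *Ets2*. *Ifit3* read 5.53, 5.35, 5.14 and 5.61. Both were lowest in *ErbB2* fibroblasts with *Ets2* and below log2 6 on every array, so these orders are among dim values. *Ifit2*, in whose windows no ISRE letters were found, read 6.41, 6.71, 6.58 and 6.47, with neither oncogene nor *Ets2* ordering the arrays.

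The OAS enzymes make the oligoadenylates that activate RNase L, and the OAS-like proteins are their relatives. *Oas2* read 6.37, 6.39, 6.22 and 6.56. *Oasl1* read 5.55, 5.65, 5.38 and 5.76, and *Oasl2* read 4.88, 4.58, 4.29 and 4.86. All 3 were lowest in *ErbB2* fibroblasts with *Ets2* and higher in *ErbB2* *Ets2* null cells, by 0.34, 0.37 and 0.56. *Usp18*, the protease that removes ISG15 and dampens signaling from the type I receptor, had the widest spread among the dim genes. It read 5.06, 5.23, 3.94 and 4.57, and was lower in *ErbB2* than in normal fibroblasts both with *Ets2* (2.17-fold) and without it (1.59-fold).

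All 5 antiviral effectors were lower in *ErbB2* than in normal fibroblasts with *Ets2*, against 28 of the 35 genes and 53.5% of all genes. All 5 were also higher in *ErbB2* *Ets2* null than in *ErbB2* cells with *Ets2*, against 29 of 35 and 55.8%. Both counts use the *ErbB2* array with *Ets2*, with opposite sign, so they are not independent. *Cmpk2* and *Mx2* lay below log2 6 on every array. *Bst2* (tetherin), which holds budding virus on the cell surface, read 8.03, 8.36, 7.25 and 7.51. Both *ErbB2* arrays lay under both normal arrays, by 0.77 with *Ets2* (1.71-fold) and 0.85 without it (1.80-fold), an order by oncogene that *Irgm1* shared. *Bst2* also marks plasmacytoid dendritic cells. *Siglech*, their defining lectin, lay between 5.10 and 5.39, and their marker *Tcf4* between 9.88 and 10.19. The markers *Spib* and *Ly6d* lay below log2 6. Between *ErbB2* and normal cells with *Ets2*, *Siglech* differed by -0.24, and *Tcf4*, *Spib* and *Ly6d* by 0.23, 0.19 and 0.02. The part of this cell type was not tested. The *Bst2* window is shown since ISRE and GAS letters overlap in it (chr8:71537473-71537722, GRCm38.p6, minus strand, 5′ to 3′).
Bst2: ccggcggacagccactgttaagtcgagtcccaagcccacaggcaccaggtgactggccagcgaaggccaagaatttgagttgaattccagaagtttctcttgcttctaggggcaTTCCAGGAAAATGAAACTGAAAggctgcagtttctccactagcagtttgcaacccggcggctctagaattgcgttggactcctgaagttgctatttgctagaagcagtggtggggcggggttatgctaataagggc
The capitals join 2 overlapping ISRE matches, GAAAATGAAA and GAAACTGAAA, with the GAS match TTCCAGGAA, which lies 128 to 136 bases before the start. *Samd9l*, a restriction factor and growth regulator, read 7.94, 7.96, 7.33 and 8.10, so that the *ErbB2* array with *Ets2* stood below the other 3. *Rsad2* (viperin), which makes a chain-terminating nucleotide, read 5.87, 6.03, 5.66 and 6.03. Its neighbour *Cmpk2*, a mitochondrial nucleotide kinase, read 4.52, 4.73, 4.24 and 5.00. For both genes other probe sets did not keep the same sign in every comparison. *Mx2*, a dynamin-like GTPase, read 5.65, 5.66, 5.51 and 5.79.

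**Figure D4:**
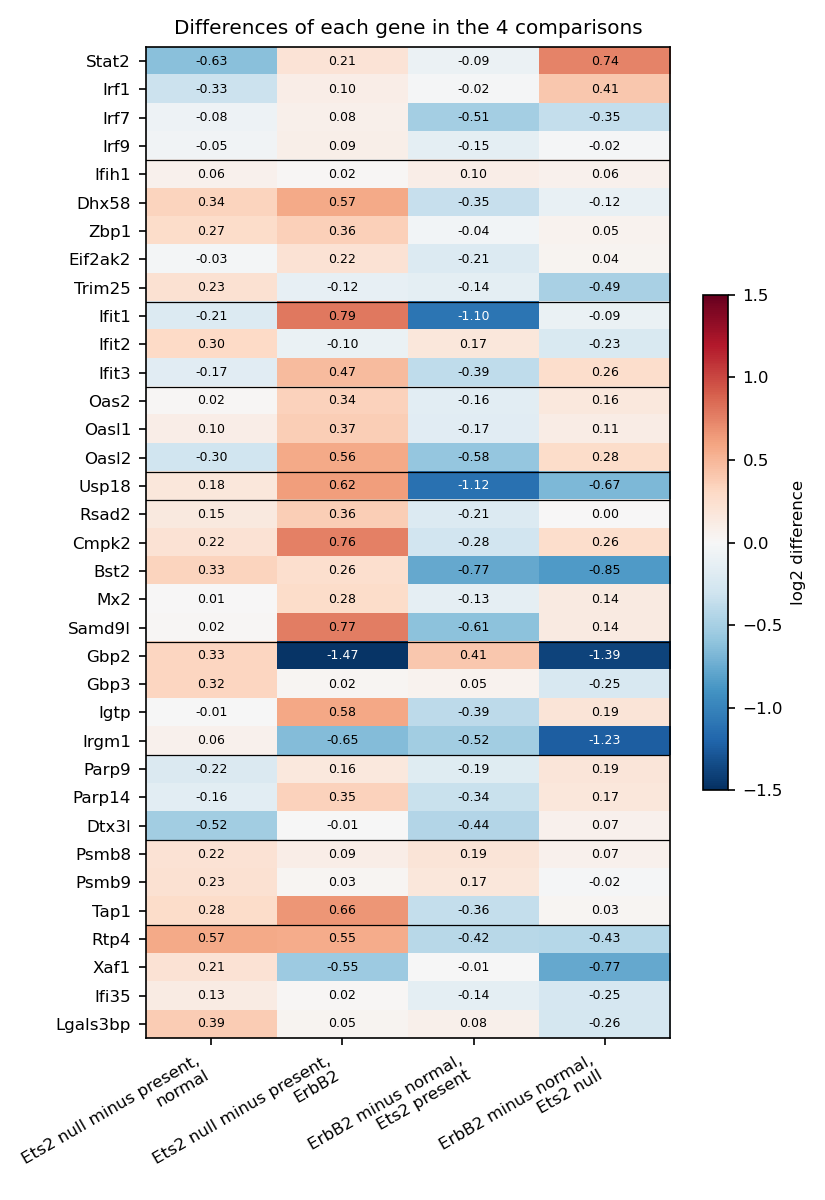
Log2 difference of each measured interferon-stimulated gene (rows, in order of role) in the 4 comparisons (columns), printed in each cell and coloured red for higher and blue for lower. The 5 antiviral effectors from Rsad2 to Samd9l are all positive in the second column and at or below -0.13 in the third, whereas Gbp2, Irgm1 and Xaf1 are negative in the second and in the last.

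The interferon-inducible GTPases, which attack vacuoles that hold microbes, did not share an order. *Gbp2*, a guanylate-binding protein, read 9.66, 9.99, 10.07 and 8.60, so that 3 arrays lay within 0.41 of each other and *ErbB2* *Ets2* null stood below them. A further *Gbp2* probe set read 9.50, 10.01, 9.85 and 8.63, with the same array lowest. The gene was 2.76-fold lower in *ErbB2* *Ets2* null than in *ErbB2* cells with *Ets2* (-1.47), and 1.26-fold higher in normal *Ets2* null than in normal cells with *Ets2* (0.33). The 2 *Ets2* differences thus differed by -1.79, with no test. *Irgm1*, an immunity-related GTPase, read 8.92, 8.98, 8.39 and 7.75. It was lower in both *ErbB2* arrays than in both normal arrays, and lowest in *ErbB2* *Ets2* null cells, 2.35-fold below normal *Ets2* null cells. Promoter windows of this pair are printed because they hold the largest differences, with ISRE letters in capitals (*Gbp2*, chr3:142620413-142620662, plus strand; *Irgm1*, chr11:48871421-48871670, minus strand; GRCm38.p6, 5′ to 3′).
Gbp2: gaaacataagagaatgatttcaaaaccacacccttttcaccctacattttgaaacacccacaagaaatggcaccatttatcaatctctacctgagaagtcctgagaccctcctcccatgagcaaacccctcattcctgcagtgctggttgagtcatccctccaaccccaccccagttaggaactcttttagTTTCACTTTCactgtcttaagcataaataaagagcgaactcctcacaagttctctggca
Irgm1: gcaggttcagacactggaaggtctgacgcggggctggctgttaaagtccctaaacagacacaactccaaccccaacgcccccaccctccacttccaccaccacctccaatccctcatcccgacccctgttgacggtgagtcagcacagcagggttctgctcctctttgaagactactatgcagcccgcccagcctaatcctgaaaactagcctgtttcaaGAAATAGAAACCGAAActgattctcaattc
*Gbp2* holds a single match, TTTCACTTTC, which ends 50 bases before the start and has the same letters as the first match of *Ifit1*. *Irgm1* holds a pair of overlapping matches, GAAATAGAAA and GAAACCGAAA, between 15 and 30 bases before the start. *Igtp* (IRGM3), which also has an ISRE match, read 6.42, 6.42, 6.03 and 6.61, lowest in *ErbB2* cells with *Ets2*, where *Gbp2* was highest, and highest where *Gbp2* was lowest. *Gbp3* read 4.99, 5.32, 5.04 and 5.07, below log2 6 throughout. The 9 measured genes with ISRE letters had a median of 0.26 for *Ets2* null minus present in *ErbB2* cells and of -0.39 for *ErbB2* minus normal with *Ets2*, beside 0.08 and -0.15 for the 18 genes whose windows lack the letters, and 0.05 and -0.02 over all 453 genes that hold them. These comparisons share an array. In the others, loss of *Ets2* in normal cells and the oncogene without *Ets2*, the medians were 0.06 and -0.09 with the letters, 0.11 and 0.03 without them, and -0.01 and 0.03 over all genes with them. Of the genes with the letters, *Stat2*, *Ifit1*, *Ifit3* and *Gbp3* lay below log2 6 on every array. Of those without them, *Irf7*, *Oasl1*, *Oasl2* and *Cmpk2* did. Dim listed genes alone had medians of 0.37 and -0.25 in the pair that shares an array, beside 0.09 and -0.16 for brighter ones. The genes with and without the letters were not matched for level.

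**Figure D5:**
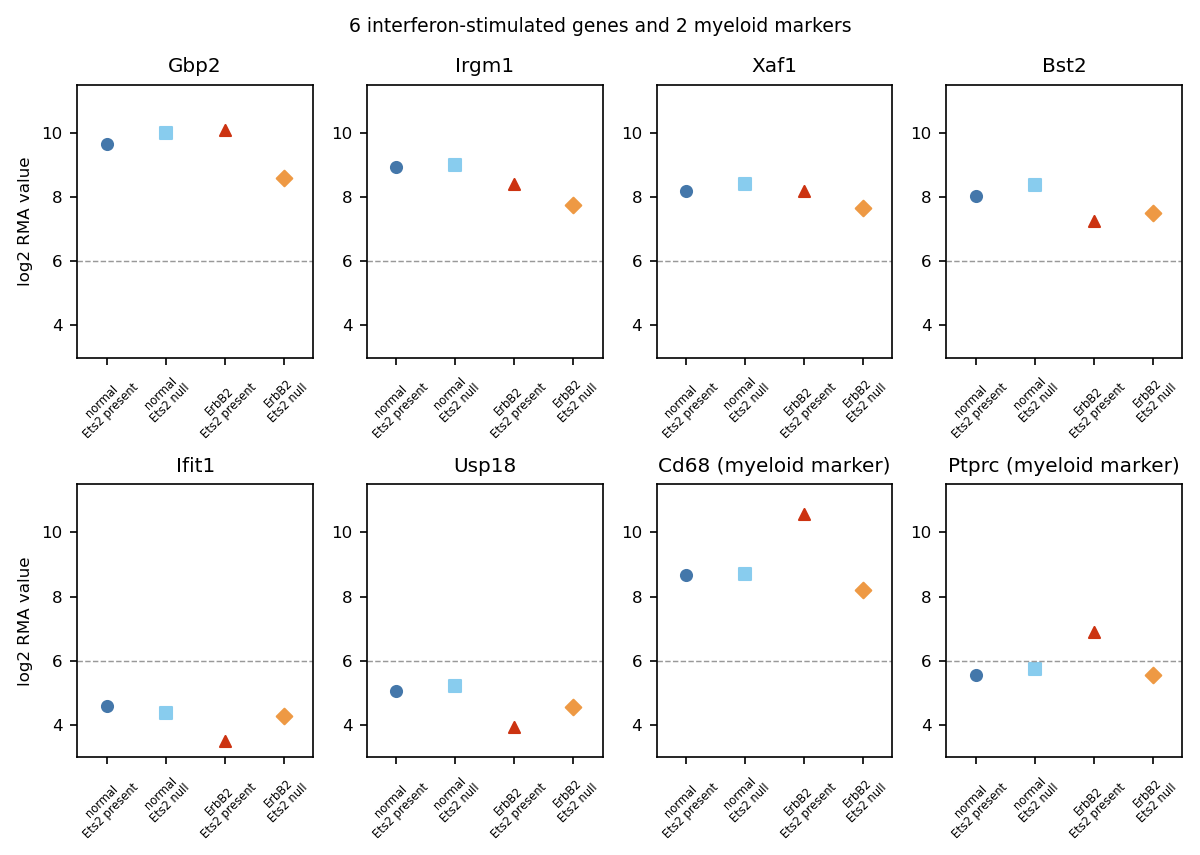
Log2 RMA values (y axis) on the 4 arrays (x axis) of 6 interferon-stimulated genes and of the myeloid markers Cd68 and Ptprc, 1 symbol per array, with a dashed line at log2 6. Gbp2, Irgm1 and Xaf1 are lowest in ErbB2 Ets2 null cells (8.60, 7.75 and 7.64), Bst2, Ifit1 and Usp18 in ErbB2 cells with Ets2 (7.25, 3.50 and 3.94), where both myeloid markers are highest (10.56 and 6.91).

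Myeloid markers moved in the same direction as *Gbp2*, *Irgm1* and *Xaf1* in the *Ets2* comparison of *ErbB2* cells. There 24 of the 25 markers were lower in *Ets2* null cells, with a median of -1.33. Of these 16 were lower by more than 2-fold, against 1.74% of all genes. *Cd68*, the lysosomal protein of macrophages, read 8.67, 8.70, 10.56 and 8.21, and *Ptprc* (CD45), the pan-leukocyte phosphatase, read 5.56, 5.75, 6.91 and 5.58. In the oncogene comparison with *Ets2*, the same markers were higher by a median of 1.0. There *Gbp2* was higher by 0.41, while *Irgm1* and *Xaf1* had differences of -0.52 and -0.01. Without *Ets2* the markers had a median of -0.26 between *ErbB2* and normal cells, beside -1.39, -1.23 and -0.77 for *Gbp2*, *Irgm1* and *Xaf1*. The 6 luminal epithelial markers had a median of -1.99 in the *Ets2* comparison of *ErbB2* cells and of 1.80 in that of normal cells. The part of either cell type in the GTPase values was not tested.

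PARP9 and DTX3L form a complex that ubiquitinates histones and viral proteins, and PARP14 is a related ADP-ribosyltransferase. *Parp9* read 7.77, 7.56, 7.58 and 7.74, and *Parp14* read 6.36, 6.20, 6.02 and 6.37. *Dtx3l* read 7.05, 6.53, 6.61 and 6.60, so that normal cells with *Ets2* stood above the other 3 arrays, by 0.52 over normal *Ets2* null cells. On these probe sets *Parp9* and *Dtx3l* shared their highest and their lowest array. Only the order of the *ErbB2* arrays differed, at 6.61 and 6.60 for *Dtx3l*. A dimmer *Dtx3l* probe set read 6.18, 5.84, 5.83 and 5.98, lowest in *ErbB2* cells with *Ets2*, so the shared lowest array did not hold on it.

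Genes of MHC class I antigen processing differed by less than 2-fold in every comparison. *Psmb8* (LMP7), a catalytic subunit of the immunoproteasome, read 8.30, 8.52, 8.49 and 8.59, and *Psmb9* (LMP2), another, read 6.34, 6.57, 6.51 and 6.55. Both were lowest in normal cells with *Ets2*, unlike most of the list. *Tap1*, which carries peptides into the endoplasmic reticulum, read 6.82, 7.10, 6.47 and 7.13. It was higher in both *Ets2* null arrays, by 0.28 and 0.66, on its brightest probe set, while the next, below log2 6, read 5.36, 5.16, 4.81 and 5.35. Of 19 other genes of MHC class I presentation 14 were measured. None of them passed 2-fold, against 0.17% to 1.74% of all genes by comparison and direction. Their medians were -0.16 and -0.06 for loss of *Ets2* in normal and *ErbB2* cells. For the oncogene with and without *Ets2* the medians were -0.06 and 0.09. *B2m*, the class I light chain, read 13.08, 13.11, 13.20 and 13.05.

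*Rtp4*, a chaperone that limits interferon responses, read 6.11, 6.68, 5.69 and 6.24. It was the only gene of the list to be over 0.5 higher in both *Ets2* null arrays (0.57 and 0.55), and it was lower in both *ErbB2* arrays (-0.42 and -0.43), although a dimmer probe set, between 3.18 and 3.60, had the opposite sign for loss of *Ets2*. *Xaf1*, an antagonist of the apoptosis inhibitor XIAP, read 8.19, 8.41, 8.19 and 7.64, lowest in *ErbB2* *Ets2* null cells like *Gbp2* and *Irgm1*, while a dimmer probe set read between 3.96 and 4.24. *Ifi35* read 9.20, 9.33, 9.06 and 9.07, and *Lgals3bp*, a secreted glycoprotein, read 10.07, 10.46, 10.15 and 10.20. Both were highest in normal *Ets2* null cells, as were 12 of the 35 genes.

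Upstream of these genes, the interferons themselves gave little signal. Of 17 ligand genes 9 were measured and all lay below log2 6. *Ifnb1* read 4.86, 4.73, 4.80 and 4.85, and *Ifng* read between 3.01 and 3.32. Of the 6 receptor genes all but *Ifnlr1* lay above log2 6, and none differed by 2-fold in any comparison. *Ifnar1* read 8.48, 8.65, 8.53 and 8.85, and *Ifngr1* read 8.71, 8.59, 9.13 and 8.57. Among 13 signaling and feedback genes, *Socs3*, an inhibitor of cytokine receptor signaling, was the single gene past 2-fold. It read 8.48, 7.25, 8.43 and 8.41, so that normal *Ets2* null cells stood below the other 3 arrays by more than 1. Its differences were -1.23 for loss of *Ets2* in normal cells and 1.16 between *ErbB2* and normal cells without *Ets2*. In these comparisons 0.357% of all genes were lower and 0.544% higher. The kinase gene *Jak1* read 10.66, 10.41, 10.71 and 10.53. Of the 17 measured of 22 nucleic acid sensing genes, none passed 2-fold. By comparison and direction, 0.17% to 1.74% of all genes did.

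Among the 51 other interferon-stimulated genes, 2 passed 2-fold, both between *ErbB2* and normal cells without *Ets2*. There 0.544% of all genes were more than 2-fold higher and 1.51% lower. *Slfn5*, a Schlafen family gene, read 6.55, 6.16, 6.35 and 7.26, higher by 1.09. *Ifi27l2a*, a small mitochondrial protein gene, read 6.99, 7.69, 6.15 and 6.25, a difference of -1.45, with both *ErbB2* arrays under both normal arrays as for *Bst2*. The 6 lists of ligands, receptors, signaling, sensing, other interferon-stimulated and MHC class I genes held 110 genes in all. In that comparison 2 of them were higher and 1 lower by more than 2-fold. For loss of *Ets2* in normal cells 0 were higher (0.621% of all genes) and 1 lower (0.357%). In *ErbB2* cells 0 were higher (0.341%) and 0 lower (1.74%), and for the oncogene with *Ets2* 0 were higher (0.83%) and 0 lower (0.17%).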

How the data were processed

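RNA of 4 fibroblast cultures, 1 per genotype, was hybridised to Affymetrix Mouse Genome arrays. The authors deposited log2 values made with RMA, which the submitters' processing notes name; no software version is stated. RMA makes the value distributions alike, which hides a shift common to most genes, and the number of arrays limits the precision.

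Of 45101 probe sets, 34958 had 1 symbol, 932 several and 9211 none in the annotation table used here. Differences were computed with Python 3.11.15, pandas 2.3.3 and numpy 2.4.6, and the steps were tested on simulated data. The 37 genes and the 15 other gene lists were chosen with earlier results of these data known. All members were named. The rule for other lists (genes past 2-fold with a value of log2 6 or more, at most 4 per comparison) was kept for the interferon pathway lists. Of the other lists only a few marker genes were named. Siglech, Tcf4, Spib, Ly6d, Vim, Epcam and B2m, outside the rule, were chosen after their values were seen. Alternatives were 4-fold and 1.5-fold sizes, median centring, quantile and loess scaling (statsmodels 0.14.6, span 0.4), a floor at log2 6, other probe set choices and means. Promoter windows came from RefSeq tables. Data of other models in the study were not analysed here.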

Additional observations from a re-analysis of the deposited data

How the results depend on the processing

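No paired analysis was possible because each genotype has 1 array and the labels carry no replicate numbers, and for the same reason no array could be left out. The 5 values past 2-fold kept their sign and stayed past it under each scaling tried. Usp18, Ifit1 and Irgm1 have a single probe set, so the probe set choices could not change their values. Both Gbp2 values stayed past 2-fold under those choices. Among single genes, 23 alternative values turned sign, the largest from a difference of 0.26. Of the 15 genes with several probe sets, 8 had the same sign on all of them in each Ets2 comparison. In the oncogene comparisons 9 did with Ets2 and 11 without it. The median between ErbB2 and normal cells without Ets2, 0.03, was -0.0011 after loess correction, and the other medians kept their sign. At 4-fold no gene was lower in ErbB2 Ets2 null than in ErbB2 cells with Ets2 (0), nor in ErbB2 than in normal cells with Ets2 (0) or without it (0). At 1.5-fold the Ets2 comparison had 1 gene lower in normal cells and 5 higher and 2 lower in ErbB2 cells, and the oncogene comparison had 4 lower with Ets2 and 1 higher and 5 lower without it. With the higher array at log2 6 or more, the median for loss of Ets2 in ErbB2 cells was 0.095, and 0 genes were more than 2-fold lower in ErbB2 than in normal cells with Ets2, since Ifit1 and Usp18 dropped out. The mean in place of the median was -0.12 between ErbB2 and normal cells without Ets2. Genes lowest in ErbB2 cells with Ets2 numbered 10 of 21 with a mean at log2 6 or more, and 20 to 22 of the genes under the other alternatives, which were chosen after seeing the data.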
